A study of Homo sapiens with 6 samples.

Results

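The genes of the proteasome and of the immunoproteasome were examined in NK-92MI cells, an established human natural killer (NK) cell line that carries an IL-2 transgene and so grows without added IL-2, after the transfer of foreign mitochondria. Members were all genes whose symbol in the platform annotation begins with PSMA to PSMG and a number, together with POMP, ADRM1, NFE2L1 and SEM1 (listed as SHFM1), without antisense genes, of which 3 were left out. This gave 53 of the 22260 genes measured. PSMC3IP matched by its name only, since it encodes a partner of meiotic recombinases and no proteasome subunit, so 52 subunits and factors were described together.

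The transfer group was 3 arrays of NK-92MI cells that had received mitochondria isolated from WRL-68 cells (5 µg, spun onto the recipient cells at 1500 × g for 15 min), and the control group was 3 arrays of NK-92MI cells without transfer. The study describes WRL-68 cells as hepatocytes, and no other agent or genetic change separates the groups in the labels. Whether the control cells were spun, how long after transfer RNA was taken, and whether the replicates were separate cultures are not given in the sources used here, so every p-value measures only the spread between these arrays, which may be technical. The study's text calls these data RNA-seq, while the sample labels name Affymetrix arrays.

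The proteasome degrades proteins that carry ubiquitin chains. Its 20S core is a barrel of alpha rings around beta rings, and the catalytic subunits PSMB5, PSMB6 and PSMB7 sit in the beta rings. The 19S particle caps the barrel, where its lid takes off ubiquitin and its base of ATPases unfolds the substrate. Lymphocytes also build an immunoproteasome, in which PSMB8, PSMB9 and PSMB10 replace the constitutive catalytic subunits and the PA28 activator, made of PSME1 and PSME2, can cap the core. Interferon-gamma induces these immune subunits, and their peptides feed MHC class I presentation. The transcription factor NFE2L1 drives the constitutive genes when proteasome activity is short.

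RefSeq promoter windows of 300 bases (250 before and 50 from the annotated start, GRCh38.p14) were found for 46 of the 52 genes, in 59 windows. PSMG3, PSMB6, PSMB7, PSMA7, PSMB1 and PSMD4 had no entry. The windows were searched on both strands for the core of the interferon-stimulated response element (ISRE), written GAAANNGAAA, and for the core of the antioxidant response element (ARE), written TGACNNNGC, to which NFE2L1 can bind. No match of one motif overlapped a match of the other in these windows. The ISRE core was present in 4 of 6 immune windows (66.7%) and in 3 of 53 windows of the other genes (5.66%), against 3.57% of 35116 human promoters. The ARE core was present in 15 of 53 windows of the other genes (28.3%) and in 3 of 6 immune windows (50%), against 13.3% of all promoters. These are matches of letters and not measured binding sites. Stretches around the start of the 5 immune genes are given because they show what these genes share, with the ISRE core in capitals on the strand of the gene, where TTTCGCTTTC is the same core read from the other strand. PSMB9 is the immune gene whose window held no match.
PSMB8 (chr6:32844018-32844097, minus strand): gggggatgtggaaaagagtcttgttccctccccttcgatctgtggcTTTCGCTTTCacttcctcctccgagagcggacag
PSMB10 (chr16:67936821-67936900, minus strand): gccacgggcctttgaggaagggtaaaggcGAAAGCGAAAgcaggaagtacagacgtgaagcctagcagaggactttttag
PSME1 (chr14:24136144-24136223, plus strand): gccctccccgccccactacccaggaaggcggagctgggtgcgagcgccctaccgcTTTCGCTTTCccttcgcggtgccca
PSME2 (chr14:24146581-24146660, minus strand): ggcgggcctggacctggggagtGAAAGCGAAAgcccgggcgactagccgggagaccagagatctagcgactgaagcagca
PSMB9 (chr6:32854142-32854221, plus strand): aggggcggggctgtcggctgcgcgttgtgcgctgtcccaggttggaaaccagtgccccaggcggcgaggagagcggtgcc

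Of the genes other than immune subunits, 14 of 41 with a promoter entry held the ARE core. The following stretches of a lid subunit, a beta subunit and an alpha subunit were chosen among these for their negative differences, with the ARE core in capitals. PSMD12 (-0.0059) and PSMG2 (-0.0024) also held a match, while PSMA3 (-0.45) and PSMC3 (-0.47) held none. Whether a match goes with the difference of a gene was not tested. A further ARE match of PSMD3 lay downstream of the stretch.
PSMD3 (chr17:39980737-39980836, plus strand): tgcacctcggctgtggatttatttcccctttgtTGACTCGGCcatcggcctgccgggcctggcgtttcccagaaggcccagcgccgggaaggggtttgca
PSMB3 (chr17:38752621-38752720, plus strand): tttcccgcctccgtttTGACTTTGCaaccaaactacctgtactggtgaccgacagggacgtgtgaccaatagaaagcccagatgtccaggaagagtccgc
PSMA4 (chr15:78540636-78540735, plus strand): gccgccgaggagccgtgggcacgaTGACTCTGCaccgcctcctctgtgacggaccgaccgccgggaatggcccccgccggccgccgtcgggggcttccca

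Every value is a log2 intensity made by RMA for 1 exon-level probe set, and a gene is the median polish of its distinct probe sets, of which the members had a median of 13 (range 3 to 42). Background was set at 5.56, under which 95% of the 362 olfactory receptor genes lay. It was exceeded by 12450 genes (55.9%) and by 50 of the 52 subunits and factors, all but PSMA8 and PSMB11. Across all genes, Pearson's r was 0.981 to 0.982 between transfer arrays, 0.988 to 0.989 between control arrays and 0.980 to 0.981 between the groups. All 14 NK cell markers on the fixed list were above background, and their summed level was 13.4 to 13.6 on the transfer arrays and 13.7 to 13.8 on the control arrays. Of 9 hepatocyte markers 2 were above background, with sums of 8.15 to 8.40 after transfer and 8.17 to 8.31 in controls. Of 10 epithelial markers 3 were above background, with sums of 8.48 to 8.65 after transfer and 8.47 to 8.55 in controls. In limma with Benjamini-Hochberg adjustment over all genes, 6 genes were lower (0.027%) and 33 higher (0.148%) after transfer at an adjusted p under 0.05.

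Most proteasome genes had lower values on the transfer arrays, each by a small amount, and none passed the threshold alone. The difference, transfer minus control, was negative in 48 of 52 subunits and factors, with a median of -0.22, which is a 13.9% lower intensity. Over all genes 53.5% of the differences were negative, with a median of -0.019. In limma 0 of the 52 were called in either direction, and the smallest adjusted p was 0.0992, for PSMD3. At an unadjusted p under 0.05, 20 members were lower and 0 were higher, against 11.2% and 6.9% of all genes. The 3 transfer arrays lay wholly below the 3 control arrays in 29 members and wholly above in 0, against 16.3% and 9.32% of all genes, and the arrays overlapped in 23 members.

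**Figure D1:**
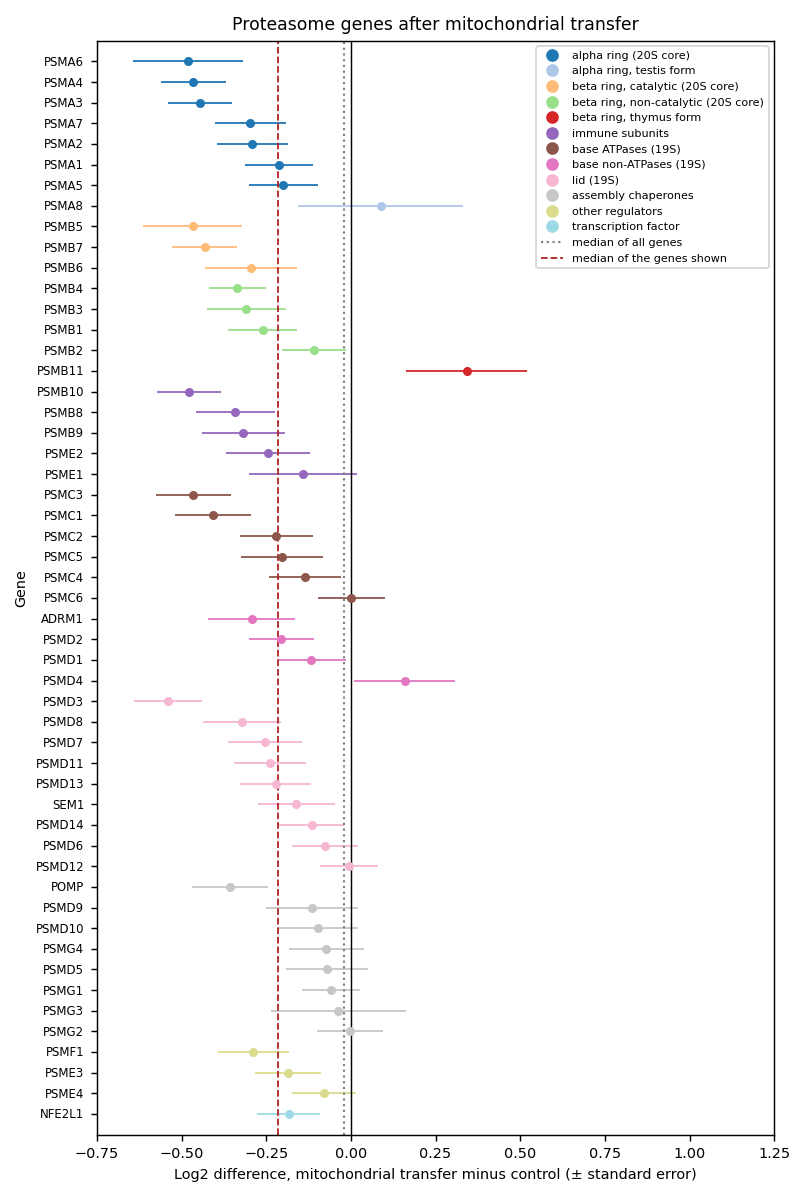
Log2 difference, transfer minus control, for 52 proteasome genes grouped by role from top to bottom. Points are limma estimates from 3 transfer and 3 control arrays and bars are ± 1 standard error. The dotted line is the median of all genes (-0.019) and the dashed line the median of the genes shown (-0.22), and 48 of 52 points lie left of 0.

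Bright genes in general also had negative differences. Of the 8033 genes that lay in the range of levels of the 50 members above background (6.55 to 10.18), 71.8% had a negative difference, the median was -0.11, 33.3% had transfer arrays wholly below control arrays, and 22.1% had a lower value at an unadjusted p under 0.05. Their median level was 7.74, dimmer than that of the 50 members (8.41). The 2 brightest deciles of all genes held 18 and 21 members. In these deciles 36.4% and 42.4% of genes had transfer arrays wholly below control arrays. Cyclic loess removes such a dependence on level between arrays. After it, the median of all genes was -0.0014 and that of the proteasome genes -0.10, with 38 of 52 negative. Transfer arrays then lay wholly below control arrays in 15 members, and 10 were lower at an unadjusted limma p under 0.05. Without this step these counts were 29 and 20. After quantile normalization the median of the proteasome genes was -0.15, with 44 of 52 negative. There the same counts were 19 and 12. The matching shares of all genes were not counted after either normalization. The part of the dependence on level in the values of single members was not tested.

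**Figure D2:**
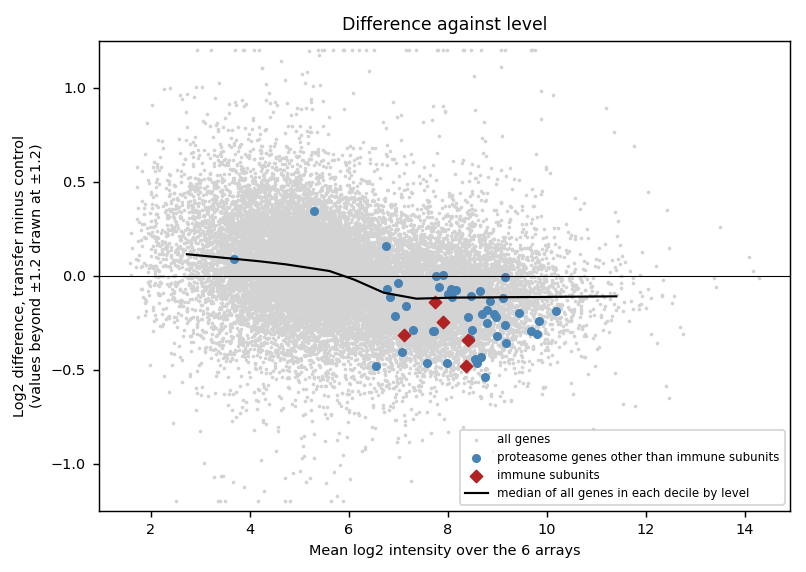
Log2 difference, transfer minus control, against the mean log2 intensity over the 6 arrays, for all genes (grey), proteasome genes (blue) and immune subunits (red diamonds). The black line joins the medians of all genes in deciles by level, which are above 0 in the dim deciles and -0.11 in the brightest, while 48 of 52 proteasome genes lie below 0.

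The calls differed between ways of testing and summarising the genes. With the test limited to the 12450 genes above background, 7 of 50 members passed an adjusted p under 0.05 in limma, all lower (PSMA3, PSMA4, PSMB4, PSMB7, PSMB10, PSMC3 and PSMD3), where 5.21% of the genes tested were lower. With the trend and robust options of limma, 9 members passed, the same 7 with POMP and PSMA7, where 4.39% of all genes were lower. The share of members lower exceeded that of the genes tested in both fits. The share among genes in the members' range of levels was not counted for these fits, and bright genes in general had more negative differences. When each gene was built only from probe sets above background, 2 members were lower (PSMB5 and PSMD3, against 0.569% of genes) and PSMA8 was higher (against 0.984%). When each gene was represented by its brightest probe set, PSMA6 was lower (against 0.234%) and PSMA8 higher (against 1.74%).

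All 3 transfer arrays shared the shift. Against the mean of the controls, the median of the 52 genes was -0.25, -0.19 and -0.22 on transfer arrays 1, 2 and 3, and -0.07, 0.02 and 0.04 on control arrays 1, 2 and 3. In 42, 38 and 38 members the value on transfer arrays 1, 2 and 3 lay under the lowest control, against 36.3%, 35.6% and 35.3% of all genes and 51.2%, 54.6% and 53.3% of the genes in the members' range of levels. Control array 1 was the lowest control in 35 of 52 members, so it lay nearest to the transfer group. The median SD of the members among replicates was 0.104 in the transfer group and 0.102 in the control group, less than for all genes (0.159 and 0.130). All genes include those below background, and the SD of genes in the members' range of levels was not taken.

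**Figure D3:**
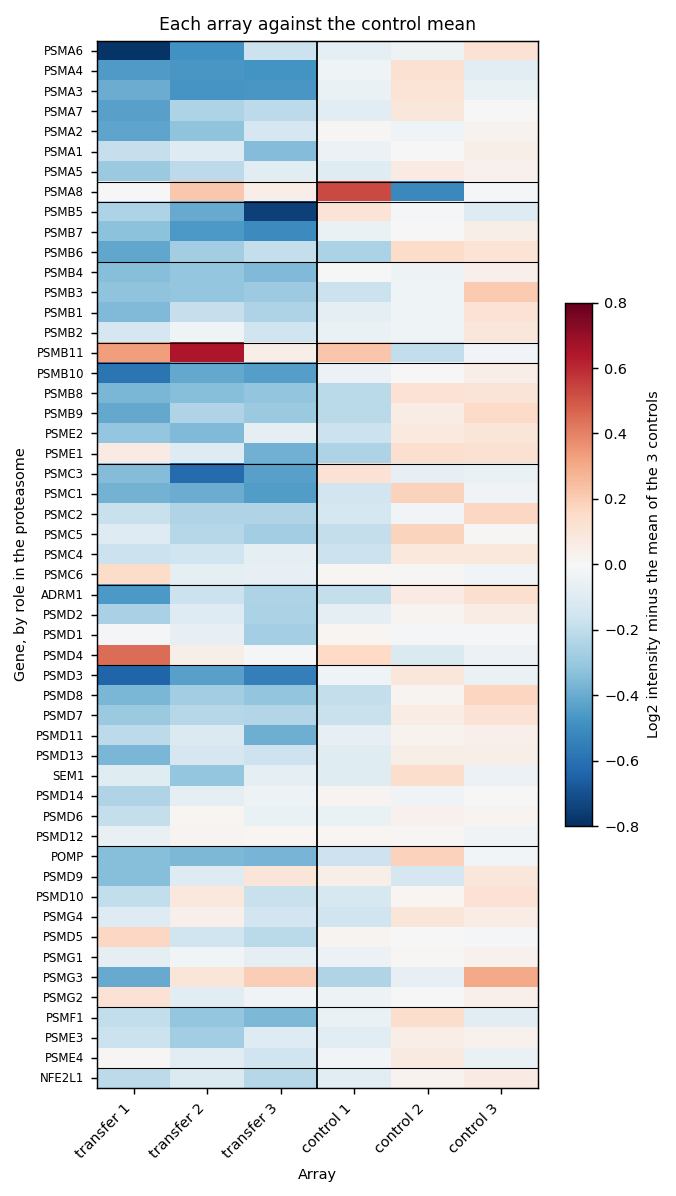
Log2 intensity of each of 52 proteasome genes on each array, relative to the mean of the 3 control arrays, with the transfer arrays on the left and the control arrays on the right. Blue is below and red above the control mean, and the columns have medians of -0.25, -0.19 and -0.22 after transfer and -0.07, 0.02 and 0.04 in controls.

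In the constitutive 20S core every subunit had a negative difference. The median of the 14 was -0.30, 11 had transfer arrays wholly below the control arrays, and 10 had an unadjusted limma p under 0.05. Among genes in the members' range of levels these shares were 33.3% and 22.1%, and over all genes 16.3% and 11.2%. In the alpha ring, whose subunits form the gate through which substrates enter, all 7 differences were negative, between -0.48 and -0.20. PSMA4 was 7.76, 7.74 and 7.73 on the transfer arrays, against 8.17, 8.33 and 8.12 on the control arrays, a difference of -0.47 (standard error 0.10, limma adjusted p = 0.109). The transfer values were nearly equal and lay well under the lowest control. PSMA3 was 8.37, 8.30 and 8.31 after transfer, against 8.72, 8.88 and 8.72 in controls (-0.45, standard error 0.09, limma adjusted p = 0.111), again without overlap. PSMA6 was 6.003, 6.31 and 6.62 after transfer, against 6.71, 6.75 and 6.91 in controls, the widest spread of the ring within the transfer group. Its difference of -0.48 had a standard error of 0.16 and a limma adjusted p of 0.203. The other alpha subunits were PSMA7 (-0.30), PSMA2 (-0.29), PSMA1 (-0.21) and PSMA5 (-0.20), of which PSMA5 overlapped between the groups.

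The testis form PSMA8, which replaces PSMA7 in male germ cells, was below background as a gene. It was 3.64, 3.85 and 3.69 on the transfer arrays and 4.17, 3.12 and 3.62 on the control arrays. These values overlapped, and the difference of 0.09 turned to -0.17 without control array 2 and to -0.0097 after cyclic loess.

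Of the catalytic subunits, PSMB7, which carries the trypsin-like activity, was 8.56, 8.43 and 8.38 after transfer, against 8.84, 8.89 and 8.94 in controls. The difference was -0.43, or 0.741-fold (standard error 0.09, limma adjusted p = 0.115), and the groups did not overlap. PSMB5, which carries the chymotrypsin-like activity and is the target of bortezomib, was 7.55, 7.40 and 7.05 after transfer and 7.92, 7.79 and 7.70 in controls. Its groups did not overlap either, but transfer array 3 stood well below the other transfer arrays, and the difference of -0.47 had a standard error of 0.15 and a limma adjusted p of 0.184. PSMB6, which carries the caspase-like activity, was 7.44, 7.58 and 7.66 after transfer, against 7.60, 8.002 and 7.96 in controls. Here control array 1 lay among the transfer values, and the difference was -0.29 (standard error 0.14, limma adjusted p = 0.308).

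Among the beta subunits without a catalytic site, PSMB4 was 8.28, 8.31 and 8.26 after transfer, against 8.62, 8.58 and 8.66 in controls. Both groups were tight and apart, with a difference of -0.33 (standard error 0.09, limma adjusted p = 0.139). PSMB3 was 9.63, 9.64 and 9.66 after transfer, against 9.78, 9.92 and 10.16 in controls (-0.31, standard error 0.12, limma adjusted p = 0.236), although its brightest probe set alone gave 0.21. PSMB1 had a difference of -0.26 without overlap and PSMB2 one of -0.11 with overlap. The thymus form PSMB11, which is known from cortical epithelial cells of the thymus, was below background at 5.46, 5.77 and 5.17 after transfer and 5.34, 4.92 and 5.10 in controls. Its difference of 0.34, with overlapping groups, was the largest positive one of the 52.

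The immune subunits all had negative differences too. The median of the 5 was -0.32, beside -0.30 for the constitutive core. It was -0.42 without control array 1 and -0.24 without control array 3. In 3 of the 5 the groups did not overlap, and the same number had an unadjusted limma p under 0.05, beside 33.3% and 22.1% of the genes in the members' range of levels and 16.3% and 11.2% of all genes. The median of the other 47 members was -0.21. On the arrays, the median of the immune subunits against the control mean was -0.37, -0.34 and -0.32 after transfer and -0.21, 0.08 and 0.10 in controls, so that control array 1 lay between the transfer arrays and the other controls.

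PSMB10, the immune counterpart of PSMB7, was 8.02, 8.19 and 8.16 after transfer, against 8.55, 8.59 and 8.65 in controls. The gap between the groups was larger than the spread within either, and the difference was -0.48, or 0.718-fold (standard error 0.09, limma adjusted p = 0.108). PSMB8, the counterpart of PSMB5, was 8.22, 8.25 and 8.27 after transfer, against 8.37, 8.70 and 8.69 in controls (-0.34, standard error 0.12, limma adjusted p = 0.206). Its transfer values were nearly equal, and control array 1 stood nearer to them than to the other controls. PSMB9, the counterpart of PSMB6, was 6.86, 7.03 and 6.97 after transfer, against 7.06, 7.33 and 7.42 in controls. The groups were apart by a narrow gap, and its difference of -0.32 (standard error 0.12, limma adjusted p = 0.241) was 0.021 when the median of the probe sets was taken. The RefSeq annotation places PSMB8 and PSMB9 beside TAP1 and TAP2, the peptide transporter of class I presentation.

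The PA28 subunits overlapped between the groups. PSME2 was 7.71, 7.67 and 7.95 after transfer, against 7.85, 8.10 and 8.12 in controls (-0.24, standard error 0.12, limma adjusted p = 0.351). PSME1 was 7.88, 7.70 and 7.42 after transfer, against 7.56, 7.94 and 7.93 in controls (-0.14, standard error 0.16, limma adjusted p = 0.678), and its brightest probe set alone gave 0.14. For both genes, control array 1 was the lowest control.

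**Figure D4:**
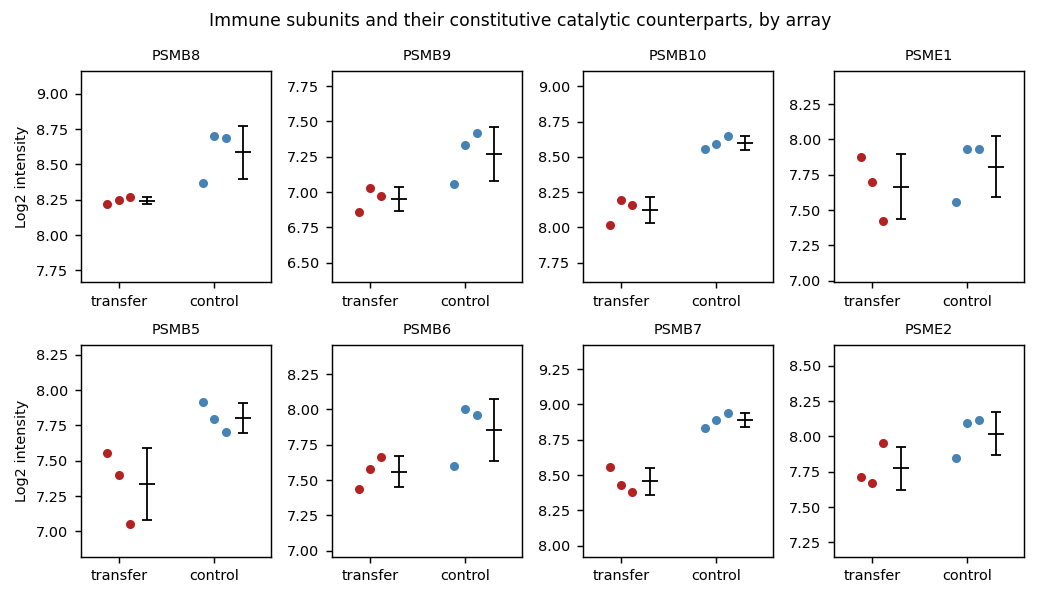
Log2 intensity of the immune subunits PSMB8, PSMB9, PSMB10, PSME1 and PSME2 and of the constitutive catalytic subunits PSMB5, PSMB6 and PSMB7 on each array, with mean ± SD beside the points (n = 3 per group). The transfer arrays lie wholly below the control arrays for PSMB8, PSMB9, PSMB10, PSMB5 and PSMB7, and overlap with them for PSMB6, PSME1 and PSME2.

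Whether the balance between immune and constitutive catalytic subunits differed was examined within each array as the log2 value of the immune subunit minus that of its counterpart. For PSMB8 and PSMB5 this was 0.66, 0.84 and 1.21 after transfer and 0.45, 0.91 and 0.99 in controls, which overlapped. For PSMB9 and PSMB6 it was -0.58, -0.55 and -0.69 after transfer and -0.54, -0.67 and -0.54 in controls. For PSMB10 and PSMB7 it was -0.54, -0.24 and -0.22 after transfer and -0.28, -0.30 and -0.29 in controls, where transfer array 1 lay below and the other transfer arrays above the control values. The changes of the mean were 0.13, -0.023 and -0.047 in the order given, and each turned sign under another gene summary (-0.39 with the brightest probe set for the first, 0.43 and 0.25 with the median of the probe sets for the others). A two-sided exact permutation test gave p = 0.7, 0.5 and 1, each 1 after adjustment over the 3 pairs, in a design that cannot go below 0.1. This test could not have passed 0.05 whatever the values, so it says nothing of whether the balance shifted. The size compared is the change between groups, since intensities of different probe sets are not on a common scale.

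In the 19S particle 17 of 19 subunits had a negative difference, with a median of -0.21, 11 had transfer arrays wholly below the control arrays, and 5 had an unadjusted limma p under 0.05. The 5 of 19 at that p lie near the 22.1% of genes in the members' range of levels, where 33.3% had the arrays apart. PSMD3, a scaffold subunit of the lid, had the largest negative difference of all members. It was 8.39, 8.59 and 8.48 after transfer, against 8.99, 9.11 and 8.97 in controls, a difference of -0.54 or 0.688-fold (standard error 0.10, limma adjusted p = 0.0992). The highest transfer array lay well under the lowest control. PSMD8, another lid subunit, was 8.79, 8.88 and 8.84 after transfer, against 8.96, 9.18 and 9.33 in controls (-0.32, standard error 0.12, limma adjusted p = 0.224). All 9 lid subunits had negative differences, with PSMD12 at -0.0059 and PSMD6 at -0.08 nearest to 0. PSMD14, the deubiquitinase of the lid, was 7.91, 8.08 and 8.11 after transfer, against 8.17, 8.12 and 8.15 in controls, a difference of -0.12 with the groups just apart. The small lid subunit SEM1, which also binds BRCA2, overlapped at 7.14, 6.93 and 7.16 after transfer and 7.14, 7.38 and 7.19 in controls (-0.16, limma adjusted p = 0.493).

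Of the 6 ATPases of the base, which unfold the substrate, 5 had negative differences. PSMC3 was 8.48, 8.21 and 8.39 after transfer, against 8.94, 8.76 and 8.77 in controls (-0.47, standard error 0.11, limma adjusted p = 0.127), and PSMC1 was 6.89, 6.88 and 6.82 after transfer, against 7.12, 7.46 and 7.24 in controls (-0.41, standard error 0.11, limma adjusted p = 0.157). Neither overlapped between the groups. PSMC6, by contrast, was 8.05, 7.83 and 7.84 after transfer and 7.92, 7.92 and 7.89 in controls, a difference of 0.0016 whose sign depended on the processing. Among the other base subunits, the ubiquitin receptor ADRM1 was 7.41, 7.70 and 7.62 after transfer, against 7.68, 7.93 and 8.002 in controls (-0.29, standard error 0.13, limma adjusted p = 0.287), where transfer array 2 reached above control array 1. The scaffold PSMD2 was 8.78, 8.94 and 8.79 after transfer, against 8.96, 9.06 and 9.10 in controls, a difference of -0.21 without overlap. PSMD4, a further ubiquitin receptor, was 7.12, 6.72 and 6.66 after transfer and 6.84, 6.56 and 6.63 in controls. Its difference of 0.16 overlapped and was -0.14 when the mean of its 6 probe sets was taken. Of these, 5 had a positive difference and 1 a negative one, of -1.64.

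The chaperones that assemble the proteasome had differences near 0, apart from POMP. The other 7 lay between -0.12 and -0.0024, with a median of -0.07, and all 7 overlapped between the groups. They included PSMG1 and PSMG2, which pair to build the alpha ring, at -0.06 and -0.0024. POMP, the maturation factor that is degraded as the first substrate of the new particle, was 9.02, 8.997 and 8.98 after transfer, against 9.19, 9.54 and 9.33 in controls. Its groups did not overlap, and the difference was -0.36 (standard error 0.11, limma adjusted p = 0.186). PSMD9, a chaperone of the base ATPases, was 6.54, 6.78 and 6.98 after transfer and 6.93, 6.75 and 6.97 in controls, a difference of -0.12 that became 0.011 when dim probe sets were left out.

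Of the remaining regulators, PSMF1, an inhibitor of the core, was 8.44, 8.33 and 8.28 after transfer, against 8.58, 8.78 and 8.55 in controls (-0.29, standard error 0.10, limma adjusted p = 0.227), with the groups apart. The nuclear activator PSME3 was 10.10, 9.99 and 10.17 after transfer, against 10.18, 10.32 and 10.31 in controls, a difference of -0.19 with a narrow gap, and the activator PSME4 had a difference of -0.08 with overlap. NFE2L1 itself was 8.68, 8.77 and 8.66 after transfer, against 8.79, 8.91 and 8.95 in controls (-0.18, standard error 0.09, limma adjusted p = 0.353). The groups were apart by a gap narrower than the spread within either. PSMC3IP, which is no subunit, had a difference of -0.22 without overlap.

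The exon-level probe sets showed whether the parts of a gene moved together. Of 723 distinct probe sets of the 52 genes, 560 (77.5%) had a negative difference, with a median of -0.23, against 56.1% and -0.07 over all 256105 probe sets. Among probe sets above background, 488 of 610 (80%) of the members were lower, with a median of -0.24. The values over all genes there were 60.5% and -0.09. In 48 of 52 genes most probe sets were lower, and in 6 genes all of them were. The matching shares over all genes were not counted, so these counts do not set the members apart from other genes. None of the 723 passed an adjusted p under 0.05 in limma over all probe sets, where 0.0043% were lower and 0.066% higher. At an unadjusted p under 0.05, 79 were lower and 11 higher, where 5.43% and 4.58% of all probe sets were. PSMD3 was lower in 16 of 18 probe sets (from -1.46 to 0.06), PSMA4 in 18 of 19, PSMB7 in 12 of 13 and PSMB10 in 8 of 10. PSMA6, PSMB1, PSMC5, PSMD8, POMP and PSMF1 were lower in every probe set.

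Single probe sets stood out from the rest of their gene, in both directions. The lowest difference of a member probe set was -2.45, in PSMA6, and the highest 1.67, in PSMA8. The brightest of PSMA8, which ran the same way as the gene value but far beyond it, was 9.76, 9.79 and 10.18 after transfer, against 8.52, 8.08 and 8.11 in controls, a difference of 1.67 that missed the threshold over all probe sets (limma adjusted p = 0.138), while the gene as a whole was below background. In PSMD2, 1 of 27 probe sets was 8.80, 8.82 and 8.60 after transfer, against 7.42, 6.82 and 7.05 in controls (1.64, limma adjusted p = 0.140), while 24 of 27 were lower. Both passed an adjusted p under 0.05 in limma when only probe sets above background were tested, where 0.454% were higher. The brightest probe set of PSMC3 was 11.56, 11.45 and 11.12 after transfer, against 10.88, 10.58 and 10.68 in controls, a difference of 0.66 in a gene with 17 of 19 probe sets lower. The brightest of PSMA3 (0.17) also ran opposite to its gene, whereas the brightest of PSMB10 (-0.71), PSMB8 (-0.89) and PSMA6 (-0.92) ran the same way.

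**Figure D5:**
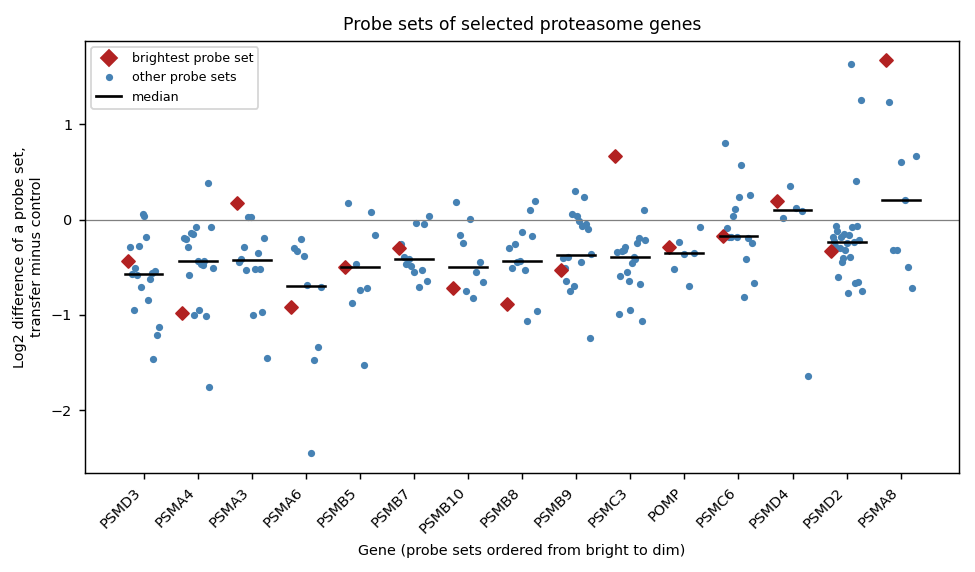
Log2 difference, transfer minus control, of each probe set of 15 proteasome genes, ordered within a gene from bright (left) to dim (right). The red diamond is the brightest probe set and the bar the median of the gene's probe sets. Most probe sets lie below 0 in PSMD3, PSMA4 and PSMB7, while single probe sets of PSMA8 (1.67), PSMD2 (1.64) and PSMC3 (0.66) lie far above it. The lowest probe set shown is of PSMA6 (-2.45).

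Genes around the proteasome were given from lists of general knowledge. Of the interferon-gamma regulators and targets, 15 of 19 measured had a negative difference (median -0.21) and in 10 the transfer arrays lay wholly below the controls, beside 71.8% and 33.3% of the genes in the proteasome genes' range of levels, so the count of negative differences lies near the general share. In limma 0 were called, and 8 were lower and 0 higher at an unadjusted p under 0.05. At that p, 22.1% of the genes in the range of levels were lower, and over all genes 11.2% were lower and 6.9% higher. IRF9, the DNA-binding subunit of the ISGF3 complex, was 6.74, 6.73 and 6.75 after transfer, against 7.29, 7.41 and 7.52 in controls (-0.67, limma adjusted p = 0.0639). TAP1 was 7.77, 7.83 and 7.78 after transfer, against 8.20, 8.29 and 8.36 in controls (-0.49, limma adjusted p = 0.0995). Both had nearly equal transfer values, far from the controls. Of 15 measured genes that handle ubiquitin at the proteasome, 10 had a negative difference, with a median of -0.08. They included FBXO7, a partner of the inhibitor PSMF1 (-0.30, limma adjusted p = 0.187), and UBQLN4, a shuttle factor (-0.36, limma adjusted p = 0.200). UCHL5, a deubiquitinase bound to the proteasome, was 8.70, 8.45 and 8.56 after transfer, against 8.31, 8.30 and 8.11 in controls, a difference of 0.33 with the groups apart (limma adjusted p = 0.201). In limma 0 of this list were called, with 3 lower and 1 higher at an unadjusted p under 0.05. In the proteasome genes' range of levels 22.1% of genes were lower at that p and 71.8% had a negative difference. Both counts of lower genes in this list lie near those shares.

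Of the factors that process NFE2L1, 4 of 6 measured had negative differences, and in limma 0 were called, with 3 lower and 1 higher at an unadjusted p under 0.05. Beside these, 71.8% of the genes in the proteasome genes' range of levels had a negative difference and 22.1% were lower at that p. Over all genes, 53.5% had a negative difference, and 11.2% were lower and 6.9% higher at that p. The count of negative differences lies near the share in the range of levels. NGLY1, the enzyme that removes N-glycans from NFE2L1 in the course of its activation, was 8.23, 8.38 and 8.64 after transfer, against 7.71, 7.88 and 7.82 in controls. Its groups were apart and the difference was 0.61 (standard error 0.13, limma adjusted p = 0.110). SYVN1, a ubiquitin ligase of the endoplasmic reticulum, was 6.22, 6.09 and 6.48 after transfer, against 6.65, 6.72 and 6.80 in controls (-0.46, standard error 0.12, limma adjusted p = 0.148). Of the genes for ubiquitin supply and activation, UBA6, an activating enzyme, had a difference of 0.40 (limma adjusted p = 0.126), and UBA1, the main activating enzyme, one of -0.18 without overlap.

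The NK cell markers had negative differences as well in 11 of 14, with a median of -0.22 and with transfer arrays wholly below controls in 10, beside 71.8% and 33.3% of the genes in the proteasome genes' range of levels. The count of negative differences lies near the general share. The markers had a median level of 9.33 and reached 11.2, above that range. In the brightest decile of all genes, 42.4% had transfer arrays wholly below controls. In limma 0 of the markers were called, with 7 lower and 1 higher at an unadjusted p under 0.05. At that p, 22.1% of the genes in the range of levels were lower, and over all genes 11.2% were lower and 6.9% higher. CD2, an adhesion receptor, had a difference of -0.66 (limma adjusted p = 0.0688) and PRF1, the pore-forming protein of the granules, one of -0.45 (limma adjusted p = 0.112), while GNLY had one of 0.49. Of the other cell types' markers, the keratin KRT18 was 5.21, 5.56 and 5.56 after transfer and 4.89, 5.09 and 5.05 in controls, with a mean under background, and APOB was below background on all arrays with a difference of 0.26. The keratin KRT7 had a difference of 0.38 and ALB, which defines hepatocytes, one of -0.30, both with a mean under background and overlapping groups. Over the whole lists, 5 of 10 epithelial markers had a negative difference (median -0.00071), and 3 of 9 hepatocyte markers (median 0.011), beside 53.5% of all genes. The part of these markers in the proteasome values was not tested. In cells measured in bulk, fewer cells that use a gene and less RNA of it per cell cannot be told apart.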

How the data were processed

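Total RNA of NK-92MI cells was labelled with biotin and hybridized to 6 Affymetrix arrays. The deposited values are log2 intensities that the authors made with RMA in Affymetrix Power Tools, for 352859 exon-level probe sets; versions, genome build and probe filters are not given in the sources used here. Sample titles gave the group and number of each array. Of the probe sets, 259224 named 1 gene, 13116 several and 80519 none, and only the first kind was used. Symbols were updated through RefSeq (1727 updated, 20529 current, 64 unmatched), and 3119 probe sets with values identical to another of the same gene were dropped, 56 of them of PSMB9. Another 21 probe sets named a member beside other genes and were left out.

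Probe sets were summarised to 22260 genes by median polish. Groups were compared in limma 3.58.1 under R 4.3.3 (lmFit and eBayes, no trend or robust option), with Benjamini-Hochberg adjustment over all genes or all probe sets and a threshold of 0.05. Tables were read with the R package data.table (version 1.17.8), and the fit was checked on simulated data. Precision is limited by the number of arrays. Members and lists were chosen with earlier results of these data known, so lists were described by counts and medians. Genes named with values were the immune and catalytic subunits, POMP, SEM1, ADRM1, NFE2L1, PSMA8, PSMB11 and PSMC3IP, the 2 members of each role and of each further list with the smallest limma p, and the members with the largest difference in each direction. PSMA1, PSMA2, PSMA3, PSMA5, PSMA7, PSMB1, PSMB2, PSMC6, PSMD2, PSMD4, PSMD6, PSMD9, PSMD12, PSMD14, PSME3, PSME4, PSMG1, PSMG2, UCHL5 and GNLY were added after their values were seen, where the rule did not already take them.

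Other gene summaries, normalizations, filters on dim values, variance models, the methods' t-test, a replicate block and each array left out in turn were tried. The copies of PSMB9 and others were also kept instead of dropped, an alternative chosen after seeing the data. Some genes of the further lists are not reported here.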

Additional observations from a re-analysis of the deposited data

How the results depend on the processing

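With 3 arrays in each group, no member passed the threshold, and calls turned on the processing. The cause of each difference below was not tested. The counts of all genes lower and higher, 6 and 33, were 52 and 388 with the brightest probe set of each gene, 17 and 52 with the mean of the probe sets, 2 and 12 with their median, 100 and 173 from probe sets above background, 649 and 187 among genes above background, 978 and 277 with trend and robust options, and 10 and 3 in the methods' t-test. Quantile normalization gave 52 higher genes. Of the proteasome genes, 1 was lower and 1 higher with the brightest probe set (PSMA6 and PSMA8), 2 lower and 1 higher from probe sets above background (PSMB5 and PSMD3, and PSMA8), 7 lower among genes above background and 9 lower with trend and robust options, and 0 in the t-test, where 19 were lower at an unadjusted p under 0.05. The share of all genes lower at that p in the t-test was not counted. Of the proteasome probe sets, 2 of 610 passed among those above background, both higher, where 0.454% of all were higher. With trend and robust options 6 of 723 passed, 3 lower and 3 higher, where 1459 of 256105 passed in either direction. The median of the proteasome genes was -0.28 from the median of the probe sets, -0.15 after quantile normalization and -0.10 after cyclic loess, and the immune median was -0.53 with the brightest probe set. With each array left out in turn, 0 to 1 genes were lower and 4 to 14 higher, 0 proteasome genes and 0 of their probe sets passed, the proteasome median was -0.27 to -0.19 and the immune median -0.42 to -0.24.

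Same-numbered arrays did not deviate together (r between 0.04 and -0.011), and for arrays of unlike number r was between -0.043 and 0.048. With 3 arrays per group this cannot show whether the samples were paired, which the labels do not say. A replicate block left 0 genes lower and 5 higher, with the members' differences as they were and 0 of them called. Of 29 named members, 20 kept their direction in every setting that gave them a value. These were 19 settings, except that PSMB11 had no value from probe sets above background, and neither PSMA8 nor PSMB11 had one among genes above background. With the brightest probe set the sign turned for PSME1 (0.14), PSMA3 (0.17), PSMC3 (0.66), PSMB3 (0.21) and PSMC6 (-0.18). PSMC6 was also -0.068 from the mean of the probe sets, -0.0012 with arrays centred, -0.0054 with array weights, and -0.070 (without transfer array 1) to 0.039 with arrays left out, -0.0095 without control array 3 among them. PSMD4 was -0.14 from the mean and PSMB9 0.021 from the median of the probe sets, PSMD9 0.011 from probe sets above background, and PSMA8 -0.0097 after cyclic loess and -0.17 (without control array 2) to 0.35 with arrays left out. The change of PSMB8 minus PSMB5 (0.13) was -0.39 with the brightest probe set and -0.040 (without control array 1) to 0.25 with arrays left out. That of PSMB9 minus PSMB6 (-0.023) was 0.43 from the median of the probe sets and -0.066 to 0.019 (without transfer array 3) with arrays left out. That of PSMB10 minus PSMB7 (-0.047) was 0.25 and -0.10 to 0.059 (without transfer array 1).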
